A study of Mus musculus with 6 samples.

Results

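Kcnj5, Antxr2 and Rnf128 were followed across 6 RNA sequencing libraries of mouse leukaemia cells, as 3 of the 27179 genes in the deposited count table. The genes were picked on the measured values themselves, because each had all 3 panobinostat libraries above all 3 vehicle libraries. Their difference between the groups is therefore given below as a description and is not tested. Of the 13207 genes with enough counts to be tested, 501, or 3.79%, separated in that direction and 480, or 3.63%, in the opposite one.

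Both groups were GFP+ cells of the leukaemia labelled A/E9a;NRASG12D;Ifnar1-/- on the C57BL/6 strain. A/E9a is a form of the AML1-ETO fusion oncogene, NRASG12D an activated RAS protein, and Ifnar1 encodes one chain of the receptor for type I interferons, so the controls lack that chain as well. Spleen was the source, propidium iodide marked dead cells in the sort, and treatment with vehicle or with panobinostat, a histone deacetylase inhibitor, had lasted 3 days. The labels name the leukaemia as a single line and do not say whether replicate libraries are separate animals, and the p-values given here rest on the spread among the 6 libraries alone, which may be technical. No label gives the age of the animals.

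The products of the 3 genes all lie in membranes and act in different processes. Kcnj5 encodes Kir3.4, also called GIRK4, a subunit of potassium channels that open when the beta and gamma subunits of inhibitory G proteins bind them. Such channels are best known from heart atria and the adrenal cortex, where they draw the membrane potential towards rest. Antxr2 encodes capillary morphogenesis protein CMG2, a surface receptor with an integrin-like domain that binds basement membrane proteins, and that anthrax toxin uses to enter cells. Rnf128 encodes GRAIL, a ubiquitin ligase of endosomal membranes with a RING domain on the cytosolic side, known for its part in T cell anergy.

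Promoter sequences are shown because the genes were chosen for a shared direction and a reader may want to compare the bases at their starts. The sequences come from RefSeq (GRCm38.p6), where all 3 genes were matched, and run 5′ to 3′ on the gene's strand from 250 bases before to 50 bases after the annotated start. Kcnj5 lies at chromosome 9, positions 32314706 to 32344380 on the minus strand, and its window at chr9:32344295-32344594. Antxr2 lies at chromosome 5, positions 97884688 to 98031017 on the minus strand, with its window at chr5:98030968-98031267. Rnf128 lies at chromosome X, positions 139563340 to 139673145 on the plus strand, with its window at chrX:139610370-139610669. The Rnf128 start in the table stands 47.3 kb inside the annotated span of the gene, and counts per gene do not show which start was used. Capitals mark GGGCGG (the GC box) on either strand and TGTGGT (the RUNX site) on either strand.
Kcnj5: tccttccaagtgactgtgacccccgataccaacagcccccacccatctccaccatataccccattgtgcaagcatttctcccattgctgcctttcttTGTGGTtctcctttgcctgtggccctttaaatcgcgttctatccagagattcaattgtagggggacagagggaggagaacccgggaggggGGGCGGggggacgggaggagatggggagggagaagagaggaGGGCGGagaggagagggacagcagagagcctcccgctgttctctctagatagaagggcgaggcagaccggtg
Antxr2: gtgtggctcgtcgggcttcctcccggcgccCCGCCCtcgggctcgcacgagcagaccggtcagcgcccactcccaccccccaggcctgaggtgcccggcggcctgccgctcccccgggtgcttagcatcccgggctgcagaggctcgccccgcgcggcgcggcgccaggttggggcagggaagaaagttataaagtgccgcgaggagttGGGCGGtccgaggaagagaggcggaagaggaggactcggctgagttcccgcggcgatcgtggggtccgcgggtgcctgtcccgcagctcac
Rnf128: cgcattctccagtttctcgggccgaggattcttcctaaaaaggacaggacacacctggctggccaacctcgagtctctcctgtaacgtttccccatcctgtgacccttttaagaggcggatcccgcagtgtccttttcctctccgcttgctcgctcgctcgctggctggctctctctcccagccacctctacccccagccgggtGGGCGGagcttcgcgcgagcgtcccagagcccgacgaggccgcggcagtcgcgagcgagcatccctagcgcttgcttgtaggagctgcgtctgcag

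The GC box letters occurred 2 times in the Kcnj5 window, 2 times in the Antxr2 window and 1 time in the Rnf128 window. They are common: 35.9% of 27025 promoter windows, 1 per gene, hold them on either strand, as do 63.1% of the 9813 windows of tested genes. TGTGGT occurred 1 time, in Kcnj5, starting 153 bases before the start site, where 16.9% of all windows and 12.7% of those of tested genes hold it. TATAAA occurred 1 time, in Antxr2, starting 62 bases before the start site, where 14.2% of all windows and 7.18% of those of tested genes hold it. GATAA (25.8% of all windows), CCGGAAG (9.12%) and TGACGTCA (1.88%) were in none of the 3 windows, and no 2 matches overlapped. Among windows of tested genes the shares of these 3 motifs were 16.6%, 19.2% and 3.38%. The windows differed in base composition: Antxr2 had 73% G and C with 35 CpG dinucleotides, Rnf128 63% with 26, and Kcnj5 58.3% with 10, against medians of 52.7% and 7 over all windows.

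Kcnj5 had the narrowest vehicle values of the 3 genes. It was counted 334, 335 and 334 times in vehicle libraries 1, 2 and 3, and 1212, 1160 and 696 times in panobinostat libraries 1, 2 and 3. On the CPM scale (each count relative to its library size, which was scaled by TMM, the trimmed mean of M values), these are 10.55, 9.61 and 9.69 in vehicle and 33.7, 32.6 and 20.6 in panobinostat libraries. The vehicle libraries lay close together, panobinostat library 3 stood below the other 2 of its group, and the groups did not overlap. Means were 9.95 ± 0.522 CPM in the controls and 29.0 ± 7.24 CPM in panobinostat libraries (SD, n = 3), a ratio of means of 2.91. Over the 9 pairs of a panobinostat and a vehicle library the ratio ran from 1.96 to 3.51. The vehicle libraries varied by 5.25% of their mean, where counting error alone gives 5.47%, and the panobinostat libraries by 25.0%, where it gives 3.13%. In these sorted bulk samples, fewer cells with a transcript and less of it per cell cannot be told apart.

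Antxr2 was the least abundant of the 3 genes. It was counted 215, 192 and 154 times in vehicle libraries 1, 2 and 3, or 6.79, 5.51 and 4.47 CPM, and 542, 373 and 458 times in panobinostat libraries 1, 2 and 3, or 15.1, 10.5 and 13.6 CPM. Panobinostat library 2 was the lowest of its group and vehicle library 1 the highest of the vehicle group, with no overlap between groups. Means were 5.59 ± 1.16 and 13.0 ± 2.34 CPM (SD, n = 3), a ratio of 2.33, and the 9 pairwise ratios ran from 1.54 to 3.37. Variation within the groups was 20.8% and 17.9% of the mean, against counting errors of 7.31% and 4.67%.

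Rnf128 had the widest panobinostat values. It was counted 413, 301 and 344 times in vehicle libraries 1, 2 and 3, or 13.05, 8.63 and 9.98 CPM, and 988, 686 and 1254 times in panobinostat libraries 1, 2 and 3, or 27.5, 19.3 and 37.2 CPM. Panobinostat library 3 was the highest and library 2 the lowest of the treated group, and every treated library lay above vehicle library 1, the highest control. Means were 10.55 ± 2.26 and 28.0 ± 8.96 CPM (SD, n = 3), a ratio of 2.65, and the pairwise ratios ran from 1.48 to 4.31. Variation within the groups was 21.4% and 32.0%, against counting errors of 5.33% and 3.20%.

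**Figure D1:**
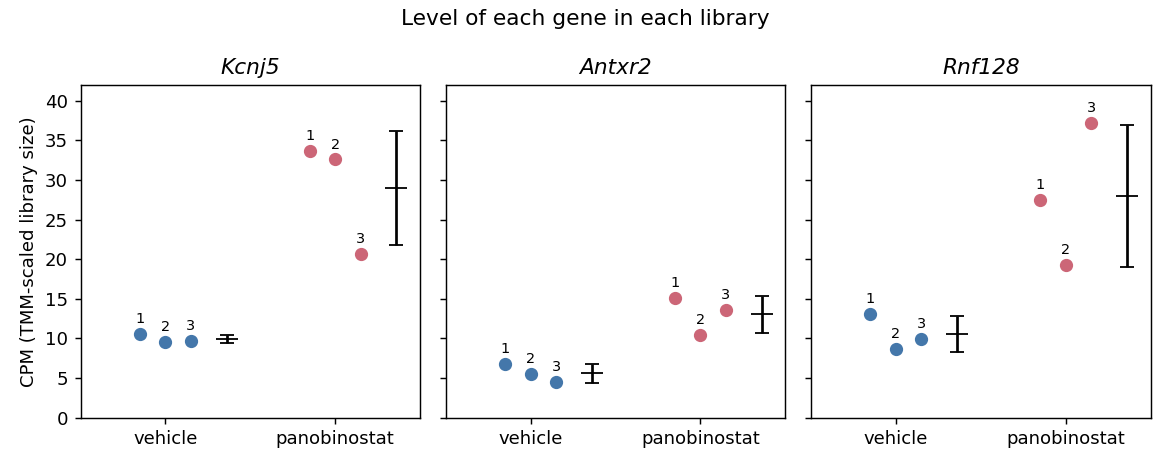
CPM of Kcnj5, Antxr2 and Rnf128 in each library (points, numbered as in the text) with the group mean and SD (black bars, n = 3), for vehicle (blue) and panobinostat (red), on a shared axis that starts at 0. The lowest panobinostat point of each gene lies above its highest vehicle point, and panobinostat library 3 is the lowest of its group for Kcnj5 and the highest for Rnf128.

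The 3 genes did not rank the treated libraries alike. Relative to its own vehicle mean on the log2 scale, Kcnj5 stood at 1.76, 1.71 and 1.05 in panobinostat libraries 1, 2 and 3. Antxr2 stood at 1.43, 0.91 and 1.28, and Rnf128 at 1.38, 0.87 and 1.82. Library 1 was high for all 3 genes, library 2 was low for Antxr2 and Rnf128 but not for Kcnj5, and library 3 was low for Kcnj5 only. In the vehicle group, library 1 was the highest for each gene, at 0.08 for Kcnj5, 0.28 for Antxr2 and 0.31 for Rnf128. Over all tested genes that library was closer to panobinostat libraries 2 and 3 (Pearson r of log2 CPM across genes 0.976 and 0.984) than to vehicle libraries 2 and 3 (0.942 and 0.941). That it lay with the vehicle group for these 3 genes follows from how they were chosen.

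Levels per kilobase of exon, from exon lengths of 4685 bases for Kcnj5, 6655 for Antxr2 and 3464 for Rnf128 in GENCODE M21, allow the genes to be compared with each other. Rnf128 stood at 3.05 ± 0.653 CPM per kilobase in controls and 8.08 ± 2.59 after panobinostat (SD, n = 3). Kcnj5 stood at 2.12 ± 0.111 and 6.19 ± 1.55 (SD, n = 3), and Antxr2 at 0.840 ± 0.175 and 1.96 ± 0.351 (SD, n = 3). The vehicle values ran from 2.05 to 2.25 for Kcnj5 and from 2.49 to 3.77 for Rnf128, without overlap, whereas their panobinostat values overlapped, from 4.41 to 7.19 and from 5.57 to 10.7. Antxr2 lay below both genes in every library. Over all 6 libraries, 40.8% of the 11717 tested genes with a length lay below Rnf128, 34.7% below Kcnj5 and 20.6% below Antxr2, so that all 3 were among the less abundant transcripts.

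None of the 3 genes passed the threshold in the edgeR fit over all genes, and all 3 passed it in DESeq2. In edgeR's quasi-likelihood test the log2 fold change was 1.54 (SE 0.212) for Kcnj5, 1.22 (SE 0.233) for Antxr2 and 1.41 (SE 0.282) for Rnf128, each with an adjusted p of 0.998. Their unadjusted p values, 0.000256, 0.00160 and 0.00215, ranked 2nd, 5th and 6th of 13207 genes, of which 2.28% had an unadjusted p under 0.05. EdgeR called 0 genes higher (0%), as did limma-voom (0%). DESeq2 gave log2 fold changes of 1.54 (SE 0.246), 1.22 (SE 0.270) and 1.40 (SE 0.311), with adjusted p of 2.54e-06 for Kcnj5 and 0.0107 for the other two, and called 7 genes higher, 0.0530% of those tested. The dispersion fitted to each gene (the squared variation between libraries beyond counting error) was 0.0573, 0.0791 and 0.0808 in edgeR and 0.0415, 0.0486 and 0.0676 in DESeq2. These ranks and calls use the contrast that chose the genes and are no support for a difference.

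The calls moved with vehicle library 1, while the fitted sizes moved little. Without that library, edgeR called Kcnj5 (log2 fold change 1.57, SE 0.244, adjusted p 0.0437) and Antxr2 (1.38, SE 0.224, 0.0460) but not Rnf128 (1.57, SE 0.299, 0.0661), beside 2.0% of all genes called higher. Their p values then ranked 241st, 283rd and 456th, since many other genes had smaller ones. Without both libraries numbered 1, all 3 were called, with adjusted p of 0.0134, 0.0155 and 0.0453, beside 7.36% of genes called higher. DESeq2 without vehicle library 1, a setting chosen after the data were seen, called all 3 beside 7.64%. With any one of the other 5 libraries left out, edgeR called none of the 3, and their log2 fold changes ran from 1.42 to 1.73 for Kcnj5, 1.09 to 1.35 for Antxr2 and 1.14 to 1.61 for Rnf128.

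**Figure D2:**
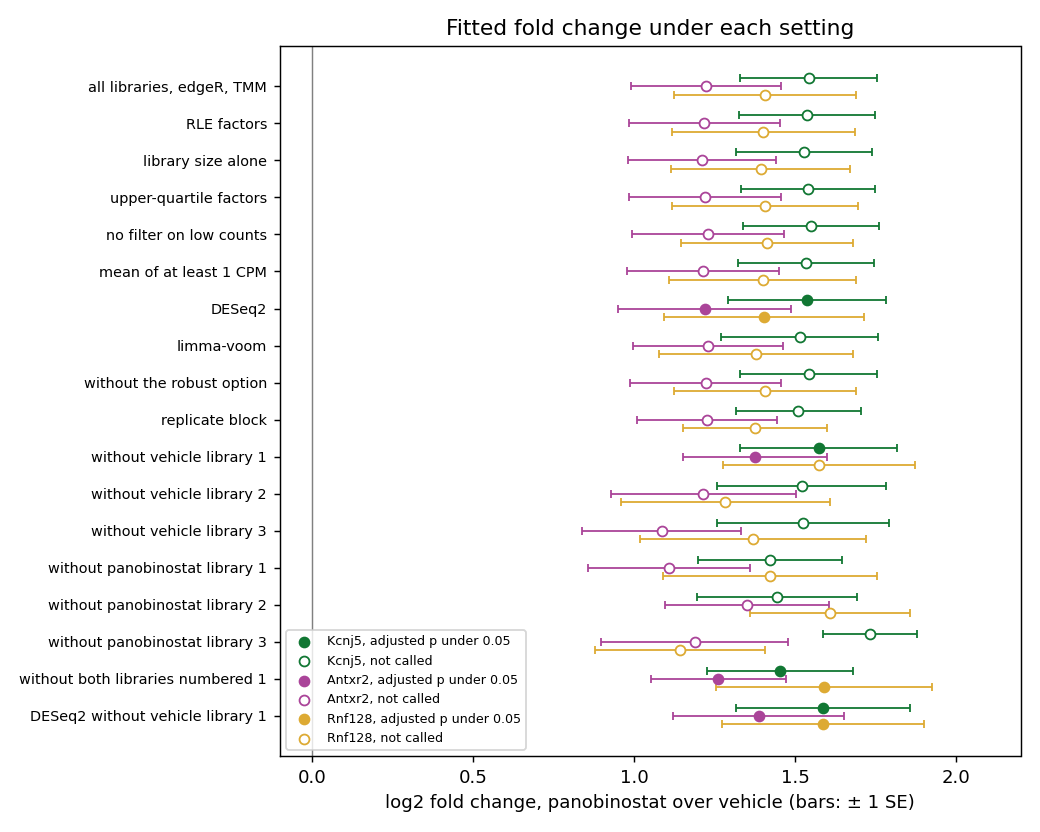
Log2 fold change of panobinostat over vehicle libraries (x axis, bars of 1 SE) for Kcnj5, Antxr2 and Rnf128 under each processing setting and with libraries left out (y axis); filled points have an adjusted p under 0.05 over all genes. Values stay between 1.09 and 1.73, and the filled points are those of DESeq2, of both fits without vehicle library 1 except Rnf128 in edgeR, and of the fit without both libraries numbered 1. The genes were picked for high panobinostat values, which fixes the direction.

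Other genes separated the groups by a wider or narrower margin. The ratio of the lowest panobinostat to the highest vehicle CPM, 1.96 for Kcnj5, 1.54 for Antxr2 and 1.48 for Rnf128, ranked 9th, 25th and 31st of all tested genes. Among the 70 genes with a log2 fold change of at least 1 and a mean of at least 5 CPM, 21 had groups that did not overlap. Closest to the limit from inside was Podxl, encoding the sialomucin podocalyxin, with a ratio of 1.03, at 511, 116 and 152.5 CPM in the controls and 526, 528.5 and 641 CPM in treated libraries 1, 2 and 3. Closest from outside was Ggt7, of the gamma-glutamyltransferase family, with a ratio of 0.993, at 13.1, 1.64 and 1.74 and then 14.1, 13.0 and 18.5 CPM. In both of these genes vehicle library 1 was the highest control.

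Kcnj5 was the one inward rectifier channel gene with a substantial count. Of 14 other inward rectifier genes, 6 had no read in any library and 2 had enough counts to be tested, Kcnj10 at 0.986 to 1.88 CPM and Kcnj14 at 0 to 0.593 CPM. Kcnj3, whose product Kir3.1 is the usual partner of Kir3.4 in the heart, and Kcnj6, a further GIRK subunit, had 0 counts in all 6 libraries, which allows up to 0.0948 CPM in the shallowest library. Kcnj9, the fourth GIRK subunit, was at most 0.287 CPM. The list's 2 tested genes had estimates of 0.18 and 0.29 on the log2 scale, neither called nor separated between groups, beside a median of 0.0009 over all genes tested. With all 6 libraries edgeR called 0 of 13207 genes in either direction. A count of 0 called in any list or neighbourhood here was therefore fixed beforehand and says nothing about its genes. Counts of separated genes in the lists below stand beside 3.79% of all tested genes higher and 3.63% lower.

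G protein genes whose products open or couple to these channels ranged from too few counts to be tested to a mean of 526 CPM. Of 21 such genes 12 were tested, 8 with an estimate above 0 and 4 below, 0 called, 0 separated in either direction, and a median log2 fold change of 0.06. Gnai2, an inhibitory alpha subunit, stood at 504 ± 87.0 CPM in the controls and 549 ± 23.2 CPM in panobinostat libraries (SD, n = 3). Gnb4, a beta subunit, stood at 322, 146 and 136 CPM in the controls and 262, 244 and 246 CPM in treated libraries 1, 2 and 3. In Gnb4 vehicle library 1 was the highest of all, and without it edgeR called the gene higher with a log2 fold change of 0.82 (SE 0.0889, adjusted p 0.0268). That fit called 268 of 13369 genes higher, or 2.0%. Of 33 other potassium channel genes 12 were tested, 5 with an estimate above 0 and 7 below, with 0 called, 0 separated and a median of -0.07. Kcnn4, the calcium-activated channel of red cells and lymphocytes, was the most abundant, at 232 to 312 CPM with overlapping groups. Kcnab2, a beta subunit of voltage-gated channels, had an estimate of -3.72 (SE 1.35, edgeR adjusted p 0.998) on the log2 scale, with 15.1, 1.18 and 42.7 CPM in the controls and 0.473, 0.759 and 3.26 CPM in panobinostat libraries, and its groups overlapped.

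Antxr2 was likewise the one anthrax toxin receptor gene counted at a measurable level. Antxr1, the closest paralog, was at most 0.174 CPM, and Antxrl had 0 counts in every library. Among 25 other genes of toxin entry and action 20 were tested, 10 with an estimate above 0 and 10 below, 0 called, with a median of -0.01. Of these 20 genes 0 separated higher and 2 lower, where 3.79% and 3.63% of all tested genes did. The co-receptor Lrp6 stood at 47.8, 54.9 and 78.4 CPM in the controls and 73.4, 60.5 and 61.6 CPM in treated libraries 1, 2 and 3, with overlapping groups. The related Lrp5 was low, at 0.537, 0.574 and 0.551 CPM and then 0.167, 0.281 and 0.267 CPM, a log2 fold change of -1.21 (SE 0.394, edgeR adjusted p 0.998) with groups that did not overlap. Furin, the protease that cuts the toxin's receptor-binding part, stood at 955, 206 and 190 CPM in the controls and 414.5, 455 and 635 CPM in panobinostat libraries. Vehicle library 1 was the highest library for Furin, and without it Furin was called higher by edgeR (1.33, SE 0.205, adjusted p 0.0437), as was Arrb2, an arrestin (0.81, SE 0.121, 0.0395). Pcsk5, a further proprotein convertase, was called lower there (-4.68, SE 0.750, 0.0449). In that fit edgeR called 268 of all 13369 genes higher and 56 lower.

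Genes for the matrix proteins that CMG2 binds, and for proteases and inhibitors that act on them, were mostly at or near 0. Of 18 such genes 6 were tested, 5 with an estimate above 0 and 1 below, and 0 were called. Of these 6 genes 1 separated higher and 0 lower, where 3.79% and 3.63% of all tested genes did. The median log2 fold change was 0.80, beside 0.0009 over all genes tested, and it was 0.25 without panobinostat library 1, 0.37 without vehicle library 3, 0.42 without vehicle library 2 and 0.54 without panobinostat library 2. The number of its genes that passed the filter also changed, to 7 without vehicle library 2 and 8 without each of the other 3. Col6a1, a chain of collagen VI, had 0 counts in all libraries, and Col4a1, a chain of collagen IV, at most 0.0574 CPM. Lamc1, the common laminin gamma chain, was the separated gene, at 272.5, 191 and 226 CPM in the controls and 449, 325 and 333 CPM in treated libraries 1, 2 and 3 (log2 fold change 0.68, SE 0.189, edgeR adjusted p 0.998). Fn1, fibronectin, stood at 1.14, 0.459 and 0.870 and then 1.11, 4.64 and 2.64 CPM, with overlapping groups and an estimate of 1.76 (SE 0.611, adjusted p 0.998 in edgeR). Mmp14, a membrane-bound matrix protease, stood at 173 ± 45.4 and 202 ± 28.4 CPM (SD, n = 3), with overlapping groups.

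The ubiquitin ligases built like GRAIL, with a protease-associated domain, a membrane span and a RING domain, had small estimates. Rnf128 itself was picked for being higher, so its contrast with them is no result. Of 11 genes 6 were tested, 1 with an estimate above 0 and 5 below, 0 called, 0 separated and a median of -0.14. Over all tested genes 50.2% had an estimate above 0. Without both libraries numbered 1 the list median was 0.008. Rnf130 was the most abundant, at 319, 293 and 274 CPM in the controls and 338, 274 and 264 CPM in treated libraries 1, 2 and 3. Rnf43, a ligase that removes Wnt receptors, had the higher estimate, 0.35 (SE 0.283), at 14.8, 7.97 and 8.62 and then 11.2, 13.0 and 15.7 CPM, with overlapping groups. Rnf13, Rnf149, Rnf167 and Rnf215 had estimates from -0.31 to -0.08, with SE from 0.141 to 0.336.

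Genes reported to act with GRAIL had estimates on both sides of 0. Of 15 genes 14 were tested, 7 with an estimate above 0 and 7 below, 0 called, with a median of 0.01. Of these 14 genes 1 separated higher and 2 lower, where 3.79% and 3.63% of all tested genes did. Otub1, a deubiquitinase that binds GRAIL, stood at 65.5 ± 5.43 and 66.4 ± 1.17 CPM (SD, n = 3). Usp8, a deubiquitinase of the same complex, stood at 109.5 ± 6.55 and 108 ± 2.69 CPM (SD, n = 3). Coro1a, an actin-binding target, stood at 742, 358 and 274 CPM in the controls and 708, 551.5 and 575.5 CPM in panobinostat libraries, with vehicle library 1 the highest of all. Cd40lg, the T cell ligand whose loss GRAIL brings about, was at most 0.115 CPM. The separated genes were Trp53, which encodes p53, with an estimate of 0.08 (SE 0.0868), Cd83 with -1.41 (SE 0.637) and Ube2d3 with -0.11 (SE 0.0913). Cd83 was low, at 0.821, 1.52 and 0.986 CPM in the controls and 0.167, 0.281 and 0.801 CPM in treated libraries 1, 2 and 3.

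Rnf128 stood at 8.63 to 37.2 CPM in cells in which 13 T cell markers summed to 12.4 to 26.1 CPM. One of these markers, Cd247, stood at 5.6 to 10.1 CPM and gave 10.1 of the 12.4 CPM in panobinostat library 1. Of 19 genes of T cell anergy 13 were tested, 6 with an estimate above 0 and 7 below, 0 called, with a median of -0.01. Among these anergy genes 0 separated higher and 1 lower, where 3.79% and 3.63% of all tested genes did. Several of the anergy genes were abundant: the top 4, Dgkz, Nedd4, Ikzf1 and Nfatc3, averaged 907, 469, 294 and 205.5 CPM over all libraries. Nfatc3 was the separated gene, with an estimate of -0.08 (SE 0.0917). Cblb, a ligase of the same process, stood at 25.5, 16.0 and 17.5 CPM in the controls and 24.6, 22.7 and 20.4 CPM in panobinostat libraries, with overlapping groups. Egr2, a transcription factor that induces anergy genes, was at most 0.884 CPM. Cd3e, a chain of the T cell receptor complex, stood at 0.916, 0.717 and 0.522 CPM in the controls and 0.0834, 0.253 and 0.682 CPM in treated libraries 1, 2 and 3. In the treated group Cd3e was lowest in library 1 and highest in library 3, and Rnf128 lowest in library 2 and highest in library 3.

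**Figure D3:**
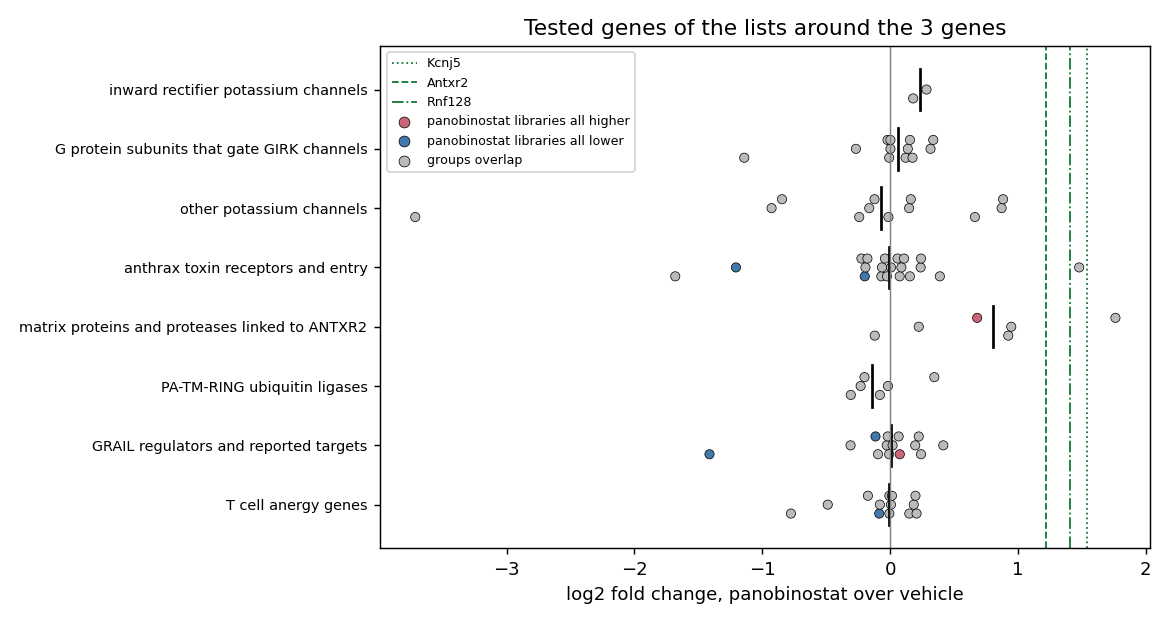
Log2 fold change (x axis) of each tested gene (points) in 8 lists around the 3 genes (y axis), with the list median as a black bar and the values of Kcnj5, Antxr2 and Rnf128 as green lines; red and blue points are genes whose groups did not overlap. Medians lie from -0.14 to 0.23 in 7 lists and at 0.80 in the matrix list. The members' own values of 1.22 to 1.54 lie to the right of nearly all points, and the members were picked for high panobinostat values.

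None of the 12 tested genes next to the 3 genes separated the groups, where 3.79% of all tested genes separated higher and 3.63% lower. So few genes cannot show a share below those. The 5 nearest genes in the table on each side of each gene gave 30 genes, of which 12 were tested, with 0 called. Around Kcnj5 the 5 tested genes had a median log2 fold change of 0.16. Fli1, an ETS transcription factor 77.8 kb away, stood at 64.6, 35.9 and 34.6 CPM in the controls and 83.2, 53.8 and 52.0 CPM in treated libraries 1, 2 and 3, an estimate of 0.48 (SE 0.309) with overlapping groups. Kcnj1, an inward rectifier gene 28.0 kb away, was at most 0.0562 CPM, and Arhgap32, 46.3 kb away on the other side, at most 0.0632 CPM. Ets1, beyond Fli1, stood at 117 CPM in panobinostat library 1 and at 35.4 to 59.8 CPM in the others.

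Antxr2 stands alone in its region, where the nearest tested gene, Mir703, lies 444.5 kb away. Of its 10 neighbours 4 were tested, with estimates from 0.06 to 0.64 on the log2 scale. The nearest on either side, Prdm8 at 136 kb and the gene 4930467D21Rik at 297 kb, were at most 0.0290 and 0 CPM. RefSeq places 2 noncoding genes inside the Antxr2 span that have no row in the table, and reads of theirs on shared positions could not be told from those of Antxr2 without strand.

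Rnf128 has its nearest neighbour, Radx, a replication fork protein gene, 8.76 kb away. Radx stood at 8.40, 14.0 and 18.8 CPM in the controls and 28.2, 16.3 and 21.4 CPM in treated libraries 1, 2 and 3, an estimate of 0.68 (SE 0.339) with overlapping groups. Tbc1d8b, 11.8 kb away on the other side, stood at 30.5 ± 2.94 and 34.9 ± 2.49 CPM (SD, n = 3), an estimate of 0.19 (SE 0.116). Of 10 neighbours of Rnf128 3 were tested.

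**Figure D4:**
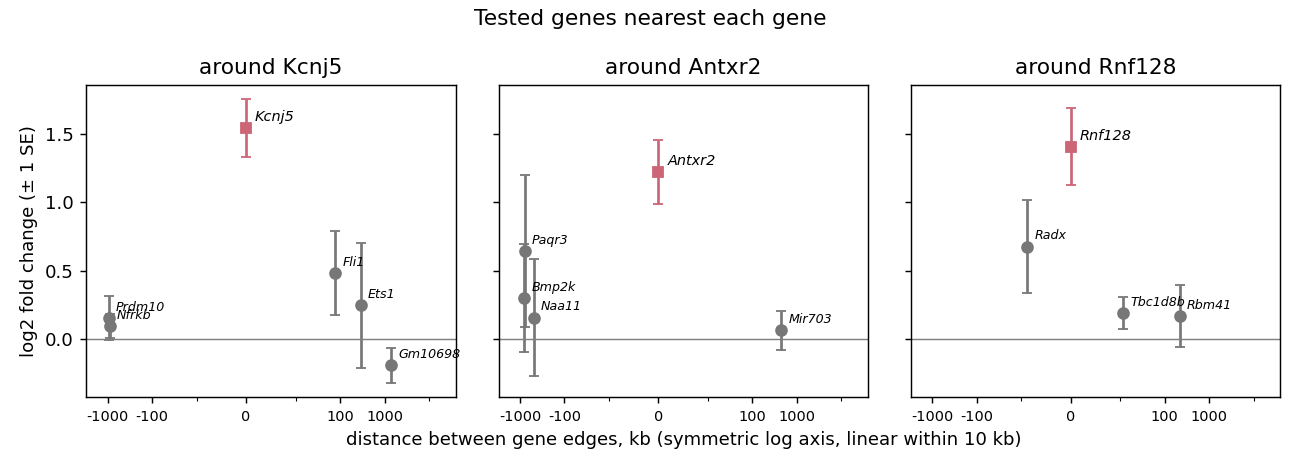
Log2 fold change with 1 SE (y axis) of Kcnj5, Antxr2 and Rnf128 (red squares) and of the tested genes among their 10 nearest in the table (grey points) by the distance between gene edges (x axis, symmetric log scale, negative towards lower coordinates). The neighbours lie from -0.19 to 0.68, below the 1.54, 1.22 and 1.41 of the 3 genes, which were picked for high panobinostat values.

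Markers of other cell types differed between libraries, and their part in the levels of Kcnj5, Antxr2 and Rnf128 was not tested. T cell markers, 13 of 13 tested and 0 called, summed to 20.0 to 26.1 CPM in the controls and 12.4 to 21.0 CPM in panobinostat libraries. All 13 had an estimate below 0, with a median log2 fold change of -0.87. B cell markers, 11 of 11 tested and 0 called, summed to 60.0 to 189 and 10.8 to 72.8 CPM, so that both lists were at their lowest in panobinostat library 1. All 11 B cell estimates were below 0, with a median of -1.39. Of these markers 3 separated lower, where 3.63% of all tested genes did. Mast cell and basophil markers, 11 of 12 tested and 0 called, summed to 1778 to 1898 CPM in the controls and to 3785, 1961 and 1898.5 CPM in treated libraries 1, 2 and 3. Of these markers 10 had an estimate above 0 and 1 below, with a median log2 fold change of 1.41, and 0 separated in either direction. Erythroid markers ran from 8207 to 23570.5 CPM in the controls, with vehicle library 1 the highest. They ran from 2999 to 22934.7 CPM in panobinostat libraries, with panobinostat library 1 the lowest. Megakaryocyte markers summed to 262, 62.8 and 65.4 CPM in vehicle libraries 1, 2 and 3. In panobinostat libraries 1, 2 and 3 they summed to 79.9, 146.5 and 173 CPM. With any 1 library other than panobinostat library 1 left out, the median of the mast cell list ran from 0.80 to 1.61. Without panobinostat library 1, where mast cell markers were highest, it was 0.03. The log2 fold changes were then 1.42 for Kcnj5, 1.11 for Antxr2 and 1.42 for Rnf128. That these 3 stay above 0 is fixed by how the genes were chosen, and a link with the markers was not tested.

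Mature myeloid, endothelial and stromal markers were mostly at or near 0, although the source was spleen. Granulocyte and monocyte markers summed to 6.34 to 13.0 CPM over 14 genes, with 7 tested and 0 called, and Mpo, the granule enzyme, was at most 0.422 CPM. Of the endothelial markers Cdh5, Tie1, Emcn and Ptprb had 0 counts in every library, as did Pdgfra and Lum of the stromal markers. The endothelial sum of 47.3 to 80.8 CPM was mostly Egfl7, and the stromal sum of 14.8 to 25.0 CPM mostly Acta2, with 0 genes of either list called.

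**Figure D5:**
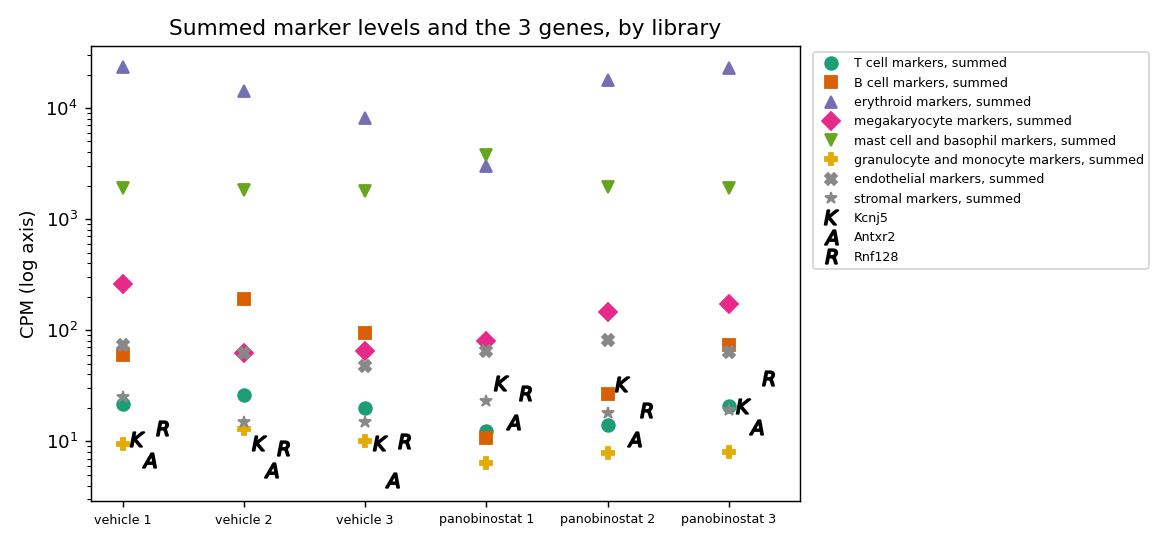
Summed CPM of 8 marker lists (coloured and grey symbols) and CPM of Kcnj5 (K), Antxr2 (A) and Rnf128 (R) in each library (x axis), on a log axis. Mast cell and basophil markers are highest, and erythroid and B cell markers lowest, in panobinostat library 1, while K, A and R are above their vehicle values in all 3 panobinostat libraries.

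Genes whose profile over the 6 libraries was most like each of the 3 were taken from the 11747 tested genes of at least 1 CPM on average by Pearson's r of log2 CPM. With 6 points that share the group difference for which the 3 genes were chosen, r describes that separation as much as anything else. For Kcnj5 the closest were Galnt10 (r = 0.992), a glycosyltransferase gene, Tmem79 (0.984), Parn (0.979), a poly(A) nuclease gene, Mmachc (0.978) and Imp4 (0.970). Their differences were smaller than that of Kcnj5: Galnt10 stood at 40.2 ± 0.0854 CPM in the controls and 50.3 ± 2.95 CPM in panobinostat libraries (SD, n = 3). For Antxr2 they were Ptger3 (0.984), a prostaglandin E2 receptor gene, Syne4 (0.980), Gm16845 (0.974), Plbd2 (0.968) and Scmh1 (0.967). Ptger3 stood at 87.1, 66.2 and 58.6 CPM in the controls and 125, 103.5 and 127.5 CPM in treated libraries 1, 2 and 3, and like Antxr2 it was highest in vehicle library 1 and lowest in panobinostat library 2 of each group. For Rnf128 they were Btf3l4 (0.975), Mettl22 (0.975), Tpst1 (0.968), a tyrosine sulphotransferase gene, Scpep1 (0.966) and Ap3s2 (0.954). Tpst1 stood at 2.31, 1.92 and 1.60 and then 4.09, 2.67 and 5.55 CPM, with the same order of panobinostat libraries as Rnf128. Among the 3 genes themselves r was 0.946 for Antxr2 with Rnf128, 0.893 for Kcnj5 with Antxr2 and 0.792 for Kcnj5 with Rnf128, a direction that the choice of the genes fixes.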

How the data were processed

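Each gene has 1 raw count per library in the table the authors deposited, and no scaling shows in the values. HISAT2 2.1.0, featureCounts and Subread 2.0.0 are among the tools that the submitters' processing notes name, with build mm10. Their options, the gene models and whether strand was used are not given in these sources. Column names give treated or ctrl and a number that the labels do not tie to their replicates. Totals ran from 31989622 to 35962605 counts, and a count of 0 allows 3 counts, which covers counting error only.

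All genes were fitted together in edgeR 4.0.16 (R 4.3.3; filterByExpr with a minimum count of 10, TMM, robust quasi-likelihood F-test, two-sided, Benjamini-Hochberg adjustment, threshold 0.05). SE is the log2 fold change divided by the square root of F. Log2 CPM used a prior count of 2. DESeq2 1.42.0 and limma 3.58.1 (voom) ran on the same filtered genes, as alternatives. The edgeR test was checked on simulated counts.

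The 3 genes, the 16 lists and the naming rules (4 most abundant tested genes of a list, its genes with unadjusted p under 0.05, 5 neighbours a side, 5 most alike genes) were chosen with earlier results of these data known. Other named genes were chosen after their values were seen.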

Additional observations from a re-analysis of the deposited data

How the results depend on the processing

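Kcnj5, Antxr2 and Rnf128 kept a higher estimate in all 17 alternatives, with log2 fold changes from 1.42 to 1.73, 1.09 to 1.39 and 1.14 to 1.61. Kcnj5 and Antxr2 were called in 4 of them and Rnf128 in 3. That the estimates stay above 0 is fixed by how the genes were chosen. The calls use the same contrast and are no support for a difference. Over all genes, edgeR called 0 higher and 0 lower with every library, and 301 had an unadjusted p under 0.05. DESeq2 called 7 higher and 2 lower, and limma-voom 0 and 0. With 1 library left out the counts ran from 0 to 268 higher and from 0 to 56 lower, where 268 and 56 came without vehicle library 1 and the other 5 gave 0. Without both libraries numbered 1 they were 974 and 616, and in DESeq2 without vehicle library 1 1022 and 480. The cause of these differences was not tested. Other scalings, filters, the fit without the robust option and a threshold of 0.01 gave 0 and 0.

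With the column number as a replicate block, edgeR called 0 and 0, and the 3 genes stood at 1.51, 1.23 and 1.38. The number is not tied to the labels' replicates, and deviations from the group mean correlated at -0.14, 0.07 and -0.20 for numbers 1, 2 and 3, so it was not taken to pair the libraries. List members called were 0 in all 16 lists with every library and in DESeq2. By edgeR at least 1 was called in 3 lists without vehicle library 1, beside 268 higher and 56 lower of all 13369 genes. Without both libraries numbered 1 it was 11 lists, beside 974 higher and 616 lower of 13239 genes. At such shares a list can hold a called gene without differing from all genes. List medians moved with the setting: from -0.30 to 0.57 for inward rectifiers, -0.21 to 0.32 for other potassium channels, -0.24 to 0.01 for the GRAIL-like ligases and 0.25 to 0.93 for the matrix list. By Spearman's rank correlation, 1, 2 and 1 of the 5 most alike genes of Kcnj5, Antxr2 and Rnf128 were still among the 5. Antxr2, at 154 to 215 counts in vehicle libraries, had the largest counting error.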
